A study of Mus musculus with 2 samples.

Results

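The 9 cadherin genes described here are Cdh1, Cdh2, Cdh3, Cdh4, Cdh5, Cdh6, Cdh8, Cdh11 and Cdh13, measured in single cells of the newborn mouse eye cup. They were chosen by symbol, with no use of their levels, and all 9 were found among the 31053 features counted in both libraries. By protein type, 4 are type I classical cadherins (Cdh1, E-cadherin; Cdh2, N-cadherin; Cdh3, P-cadherin; Cdh4, R-cadherin) and 4 are type II (Cdh5, VE-cadherin; Cdh6; Cdh8; Cdh11). Cdh13 (T-cadherin) lacks the cytoplasmic tail and is held in the membrane by a lipid anchor.

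Classical cadherins are transmembrane proteins that bind the same or a closely related cadherin on the neighbouring cell in the presence of calcium, and their tails bind p120-catenin and β-catenin, which link them through α-catenin to actin. Cells that carry different cadherins tend to sort apart, so the set a cell makes is often called its cadherin code. In the eye, N-cadherin is known for holding the neural retina together and P-cadherin for the junctions of the retinal pigment epithelium (RPE), the pigmented sheet behind the photoreceptors.

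The cells came from mouse pups at postnatal day 0. The control library was made from 3 pooled Myrf fl/fl eye cups and the mutant library from 3 pooled Rx>cre Myrf fl/fl eye cups. Both genotypes therefore carry the floxed Myrf alleles, and they differ in the Rx>cre transgene, which makes cre recombinase in the early eye field that gives rise to both RPE and neural retina. A group with Rx>cre alone was not analysed here, and cornea, lens and optic nerve had been dissected off. Myrf, the targeted gene, gave 742 UMIs (unique molecular identifiers, each marking 1 captured transcript) or 230 CPM (the count scaled to the total UMIs of the class) in control RPE-like cells and 68 UMIs or 27.5 CPM in mutant ones. With 1 library per genotype there is no replicate check of any difference. All intervals below are 95% intervals that cover counting error only, and no p-value is given.

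After filtering, 12647 control and 10888 mutant cells remained, with median depths of 4257 and 4815 UMIs. They formed 37 clusters, of which 31 took a class name from marker genes and 6 stayed unnamed (23.7% of control and 15.8% of mutant cells). The cadherins were kept out of the clustering, and 59 barcode sequences occurred in both libraries. The libraries differed in sex-linked transcripts: 7.20% of control and 70.4% of mutant cells held a UMI of Xist and none of a Y-linked gene. In RPE-like cells these shares were 17.0% and 39.3%. Ratios within cells with Xist alone or with Y-linked UMIs alone are given beside some, not all, of the results below. In the neural classes those with Xist rest on 9 to 74 control cells. RPE-like cells numbered 477 in the control library and 214 in the mutant library (3.77% and 1.97% of cells), and their median depths also differed, at 2542 and 10410 UMIs. This cluster counted 9 of 11 RPE markers, among them Rlbp1, Ttr, Tyrp1 and Pmel, while Rpe65 stood at 3.73 CPM for control and 0 for mutant cells and the melanocyte gene Pax3 at 0 in both.

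The same cadherin had the most UMIs of the 9 in both libraries in 12 of the 14 classes with at least 20 cells per library. In 3′ libraries a UMI marks a transcript end whatever the transcript's length, so UMI shares were compared between genes without a length correction. Cdh2 led in retinal progenitor-like, neurogenic-like (progenitors leaving the cycle to become neurons), photoreceptor-like and amacrine-like cells. Cdh3 led in RPE-like cells, Cdh5 in endothelial-like cells, Cdh11 in both mesenchymal classes and Cdh1 in surface epithelium-like cells. The astrocyte-like class of 31 cells per library was led by Cdh11 in the control and Cdh2 in the mutant. In muscle-like cells Cdh2 led in the control with 34 UMIs to 31 of Cdh13, and they tied at 20 UMIs each in the mutant.

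**Figure D1:**
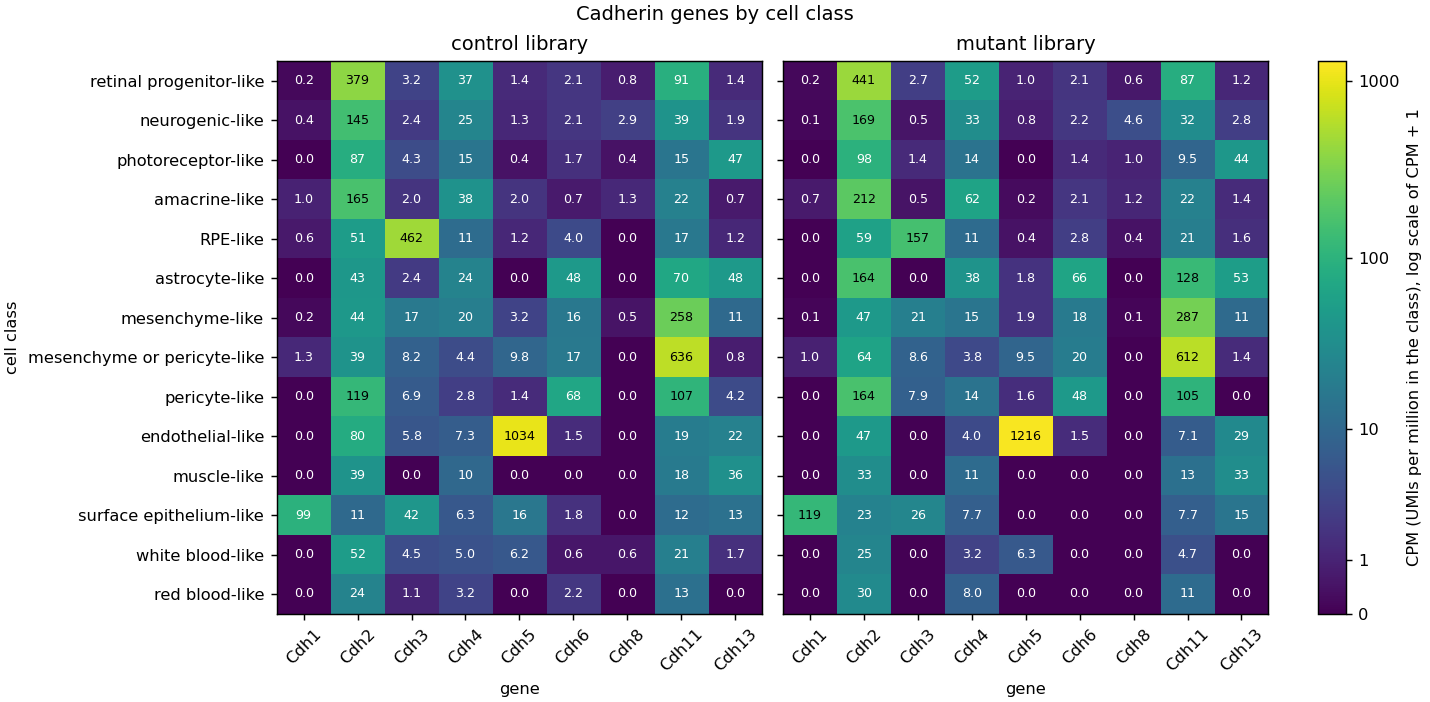
Level of each cadherin (columns) in each cell class (rows) of the control (left) and mutant (right) library, in CPM printed in each cell and coloured on a log scale of CPM + 1. Cdh2 is high in neural classes and pericyte-like cells in both libraries. Cdh3 is high in RPE-like cells (462 and 157 CPM), Cdh5 in endothelial-like cells and Cdh11 in mesenchymal classes in both libraries.

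Among the type I genes, Cdh1 was highest in surface epithelium-like cells, the keratin-positive cells of the lid and ocular surface. Their level was 99.5 CPM (81.8 to 120) from 111 UMIs in the control and 119 CPM (96.1 to 146) from 93 UMIs in the mutant. No other class with at least 20 cells per library passed 1.28 CPM in either library, and melanocyte-like cells, with 18 cells in the mutant, are given in the closing section. White blood-like cells, which should lack these genes and served as a gauge of free RNA, held 0 Cdh1 UMIs in 269 control and 67 mutant cells, which allows levels of up to 1.68 and 4.75 CPM.

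Cdh2 was counted in every class with at least 20 cells per library. Its level was highest in retinal progenitor-like cells, the dividing cells of the neural retina, at 379 CPM (370 to 388) in the control and 441 CPM (433 to 450) in the mutant. Amacrine-like cells, the inhibitory interneurons, came next among the classes with at least 20 cells per library, at 165 and 212 CPM, followed by neurogenic-like cells at 145 and 169 CPM. In the control the intervals of amacrine-like and neurogenic-like cells overlapped, while in the mutant they did not. Pericyte-like cells, outside the neural classes, had 119 and 164 CPM. The few cells with Schwann or other glia markers (21 and 19) had 335 and 420 CPM. Progenitor-like cells held 57.8% of all control and 65.6% of all mutant Cdh2 UMIs.

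Cdh2 was also counted in cells that should lack it. White blood-like cells gave 51.6 CPM of Cdh2 for control and 25.3 CPM for mutant cells. After each cell was thinned to 1000 UMIs, 8.47% (5.25 to 12.8) of control white blood-like cells and 3.23% (0.393 to 11.2) of mutant ones held a Cdh2 UMI, against 30.6% (29.2 to 32.2) and 35.1% (33.7 to 36.5) of progenitor-like cells. The thinned shares in photoreceptor-like cells were 8.81% and 8.37%, with intervals that overlapped those of white blood-like cells. Their levels of 87.0 CPM (75.4 to 99.8) and 98.4 CPM (87.4 to 110) lay above the white blood-like levels, 41.6 to 63.2 CPM for control and 14.5 to 41.1 CPM for mutant cells, so shares and levels read differently there. Without thinning, Cdh2 was found in 23.4% and 13.4% of white blood-like cells and in 77.9% and 82.7% of progenitor-like cells.

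Cdh3 was concentrated in RPE-like cells, which were 3.77% of control cells and held 75.5% of the library's Cdh3 UMIs. In the mutant they were 1.97% of cells and held 55.7%. The next class was surface epithelium-like, at 42.1 CPM (31.0 to 56.0) for control and 25.6 CPM for mutant cells. Mesenchyme-like cells, the connective tissue cells of sclera, cornea and orbit, followed at 17.3 and 20.97 CPM, and in the mutant the intervals of these last classes overlapped.

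The mesenchyme-like Cdh3 came from 4 of the 5 clusters of that class. Cluster 24, led by Lypd1 and Hsd11b1, had 32.0 CPM for control and 42.04 CPM for mutant cells. Cluster 27, led by the tendon genes Tnmd and Scx, had 26.5 and 34.7 CPM. Cluster 21, led by Acan, had 22.7 and 27.0 CPM, and cluster 23, led by the corneal keratocyte genes Aldh3a1 and Kera, had 22.1 CPM in both libraries. Cluster 13, led by Clec3b and Pi16, stood apart at 3.53 and 2.36 CPM.

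Cdh4 was a low member with its highest levels in neural classes. Amacrine-like cells had 38.1 CPM for control and 62.5 CPM for mutant cells, and progenitor-like cells 36.7 and 52.3 CPM, with overlapping intervals in both libraries. It was not confined to the neural retina: astrocyte-like cells had 24.0 and 38.3 CPM. Mesenchyme-like cells had 20.4 and 15.4 CPM, beside 15.4 and 14.2 CPM in photoreceptor-like cells. Of the amacrine-like clusters, cluster 16 (led by genes such as Crabp1 and Glra2) had 56.2 and 96.0 CPM, and cluster 15 (led by genes such as Klhl35 and Prdm13) had 21.5 and 22.8 CPM.

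Among the type II genes, Cdh5, the cadherin of blood vessel junctions, was counted almost solely in its own class. Endothelial-like cells held 95.03% of its control UMIs and 96.7% of its mutant UMIs, at 1034 and 1216 CPM. After thinning, 51.1% (46.1 to 56.1) of control and 63.6% (55.8 to 71.0) of mutant endothelial-like cells held a Cdh5 UMI, against 0.424% and 1.61% of white blood-like cells.

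Cdh11 marked the mesenchyme. It reached 636 CPM for control and 612 CPM for mutant cells in the class that counted mesenchyme and pericyte markers equally, and 258 and 287 CPM in mesenchyme-like cells. Pericyte-like cells, the mural cells of small vessels, had 107 and 105 CPM. Progenitor-like cells also carried it, at 91.1 and 86.9 CPM, with a thinned share of 8.61% (7.72 to 9.57) and 8.19% (7.39 to 9.05) against 3.81% (1.76 to 7.12) and 0 of 62 in white blood-like cells. That count of 0 allows a share of up to 4.84%.

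Among the classes with at least 20 cells per library, Cdh6 was highest at 67.8 and 47.7 CPM in pericyte-like cells and 48.1 and 65.6 CPM in astrocyte-like cells. These intervals overlapped in both libraries. The cells with Schwann or other glia markers, fewer than that in the mutant, had 194 and 280 CPM. Within the mesenchyme-like class it was highest in the keratocyte-gene cluster 23, at 42.1 and 43.8 CPM. Cdh8 was the scarcest member, with 55 UMIs in the whole control library and 71 in the mutant. Its highest class was neurogenic-like, at 2.92 and 4.58 CPM, and within that class cluster 18 (led by Crip3 and Atoh7) had 8.62 and 10.5 CPM from 10 and 13 UMIs.

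Cdh13 was spread over unrelated classes. Among those with at least 20 cells per library its level was 48.1 CPM in control and 52.9 CPM in mutant astrocyte-like cells, 47.1 and 43.6 CPM in photoreceptor-like cells, 35.8 and 32.6 CPM in muscle-like cells and 22.4 and 28.8 CPM in endothelial-like cells. The intervals of neighbours in this order overlapped in both libraries. The photoreceptor-like clusters differed: cluster 20, led by the cone genes Pde6h, Opn1sw and Gnat2, had 78.9 and 70.4 CPM, and cluster 5, led by the rod genes Nr2e3 and Sag, had 31.4 and 29.1 CPM. The depth of the deposited cells was similar in both, with cluster medians of 3652 and 2946 UMIs.

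**Figure D2:**
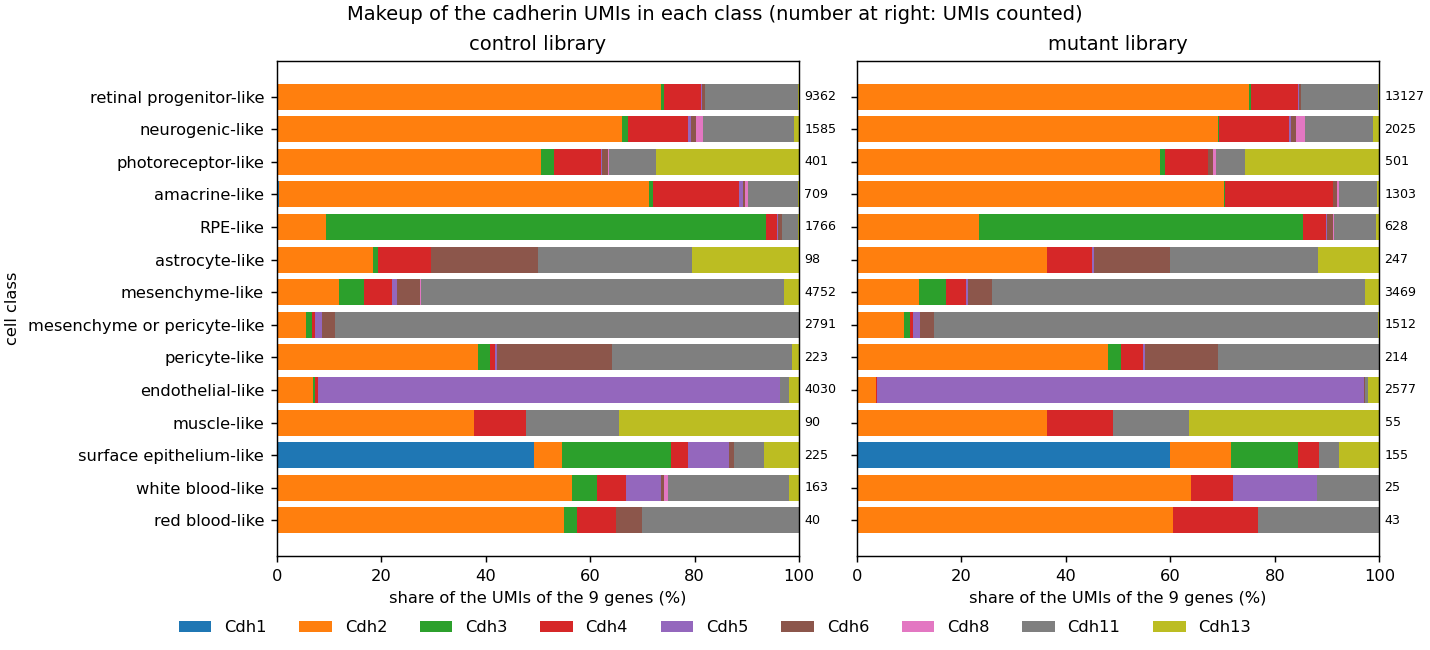
Share of the UMIs of the 9 cadherins that each gene made up (horizontal axis, %) in each cell class of the control (left) and mutant (right) library, with the number of UMIs at the right of each bar. The RPE-like bar is mostly Cdh3 in both libraries, at 84.2% in the control and 61.9% in the mutant.

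The first genotype comparison asked how the members differed in RPE-like cells, the class in which Myrf was highest of those checked. Cdh3 was the one member that differed by at least 1.5-fold. It gave 1487 UMIs or 462 CPM (439 to 486) in 477 control cells and 389 UMIs or 157 CPM in 214 mutant cells, and the intervals did not overlap. The log2 ratio of mutant to control levels, each raised by 1 CPM, was -1.55 (-1.72 to -1.39), a control level 2.94 times the mutant level. Here and below the interval is that of the ratio without the added CPM.

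Of the 9 members, 5 reached the minimum of 20 UMIs over both libraries in RPE-like cells, and 1 of these 5 was lower in the mutant by at least 1.5-fold and 0 higher. Over all 11119 features that reached this minimum, 11.3% were lower and 7.99% higher by as much, 19.3% in all, with a median log2 ratio of 0.00. A count of 1 in 5 is close to that share, so it is no result about the cadherins as a group.

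Cdh2 had 165 control UMIs (51.3 CPM, 43.7 to 59.7) and 147 mutant UMIs (59.4 CPM, 50.2 to 69.8) in RPE-like cells. The levels overlapped, with a log2 ratio of 0.21 (-0.12 to 0.54). Its thinned shares of 6.05% and 4.32% had intervals that overlapped those of white blood-like cells. The control level was also within the white blood-like interval, while the mutant level lay above it (14.5 to 41.1 CPM).

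Cdh11 had 54 and 51 UMIs (16.8 and 20.6 CPM), a log2 ratio of 0.28 (-0.28 to 0.88). Its thinned shares of 2.63% and 2.16% lay under the white blood-like share of 3.81% and the limit of 4.84%. Its mutant level (15.3 to 27.1 CPM) nevertheless lay above that of mutant white blood-like cells (0.979 to 13.9 CPM), from 3 UMIs there. Cdh4, with 37 and 28 UMIs (11.5 and 11.3 CPM), had a log2 ratio of -0.02 (-0.78 to 0.73), and Cdh6, with 13 and 7 UMIs, one of -0.40 (-2.08 to 0.92). These intervals hold differences past 1.5-fold in either direction for Cdh4 and Cdh6, so such differences were not detectable at this depth. The other members were near 0: Cdh1 with 2 and 0 UMIs, Cdh5 with 4 and 1, Cdh8 with 0 and 1 and Cdh13 with 4 and 4.

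**Figure D3:**
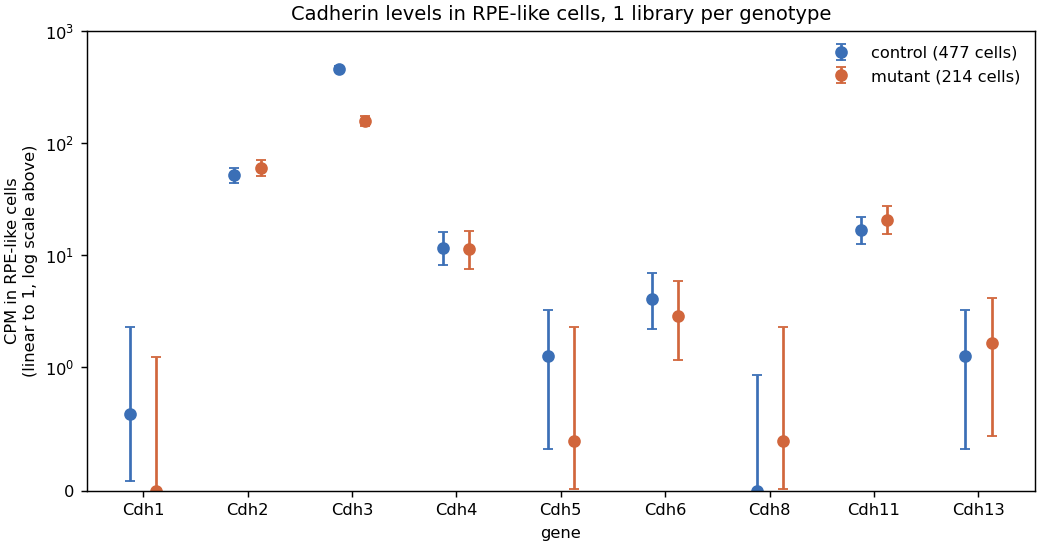
Level of each cadherin in RPE-like cells in CPM (vertical axis, linear to 1 and logarithmic above) in the control (blue, 477 cells) and mutant (orange, 214 cells) library, with exact 95% Poisson intervals. The intervals are apart for Cdh3 alone, at 462 and 157 CPM.

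The makeup of the cadherin UMIs moved with Cdh3. Of 1766 cadherin UMIs in control RPE-like cells, 84.2% (82.4 to 85.9) were Cdh3 and 9.34% (8.03 to 10.8) Cdh2. Of 628 in mutant RPE-like cells, 61.9% (58.0 to 65.8) were Cdh3 and 23.4% (20.1 to 26.9) Cdh2. The summed level of all 9 was 549 and 254 CPM.

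Depth differed between the RPE-like cells of the libraries, so Cdh3 was also compared within depth ranges. In cells of up to 2000 UMIs the log2 ratio was -1.38 (-2.75 to -0.28), from 82 and 7 UMIs. In cells of over 2000 and up to 8000 UMIs it was -1.59 (-2.33 to -0.93), and in cells over 8000 UMIs -1.61 (-1.79 to -1.44). All 3 ranges lay past 1.5-fold in the same direction. Cdh11 did not keep 1 direction, at -2.24 (-7.66 to 0.33) in the shallowest cells, from 22 and 1 UMIs, and 1.13 (0.45 to 2.03) in the deepest, from 22 and 45. Among cells with Xist but without Y-linked UMIs the Cdh11 ratio was 1.76, from 5 and 32 UMIs, and among those with Y-linked but no Xist UMIs it was -0.01. Cdh2 was at -0.83 (-3.21 to 0.88) and 0.42 (0.06 to 0.80) in the same ranges.

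In cells thinned to 1000 UMIs, 29.7% (25.2 to 34.6) of 380 control RPE-like cells and 14.1% (9.39 to 19.9) of 185 mutant ones held a Cdh3 UMI. The control share was 2.12 times the mutant share, and 97 control and 29 mutant cells were left out as too shallow. Among white blood-like cells, with median depths of 2890 and 8565 UMIs, 1 of 236 and 0 of 62 held one. Without thinning the shares in RPE-like cells were 56.8% and 57.9%, with the mutant cells deeper as given above.

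The Cdh3 ratio was also computed within cells grouped by sex-linked UMIs, which leaves out cells with both kinds or neither. In RPE-like cells with Xist but without Y-linked UMIs (81 control, 84 mutant) it was -1.71, and in those with Y-linked but no Xist UMIs (125 and 37) it was -1.55. The class's own markers moved with genotype as well. The summed level of 11 RPE markers was 25366 and 14524 CPM (11 and 10 detected, with Rpe65 at 0 in the mutant), and 10 of the 11 had a lower level in the mutant. Ttr, a carrier of thyroid hormone and retinol, stood at 5000 and 1091 CPM, the lactate transporter gene Slc16a8 at 1361 and 445 CPM and the retinoid-binding protein gene Rlbp1 at 823 and 329 CPM. Smaller differences were those of Stra6 (470 and 396 CPM) and Pmel (13981 and 10587 CPM), and Lrat went the other way, from 0.621 to 6.87 CPM. Markers of some other cells also moved with genotype in the RPE-like class. The summed level of 9 mesenchyme markers, all 9 detected in both libraries, was 2398 CPM for control and 327 CPM for mutant cells. That of 8 lens markers was 388 and 76.4 CPM (8 and 5 detected, with Cryaa, Cryba1 and Cryga at 0 in the mutant). That of 8 red blood markers was 704 and 92.2 CPM (5 and 4 detected). The sum of 10 surface epithelium markers was similar, at 2569 and 2586 CPM (9 and 10 detected), and includes Krt18, a leading gene of the RPE-like cluster itself. The part of RNA of other cells in the Cdh3 difference was not tested. Mesenchyme-like cells held 17.3 and 20.97 CPM of Cdh3 and red blood-like cells 1.08 and 0 CPM, under the RPE-like level in both libraries.

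**Figure D4:**
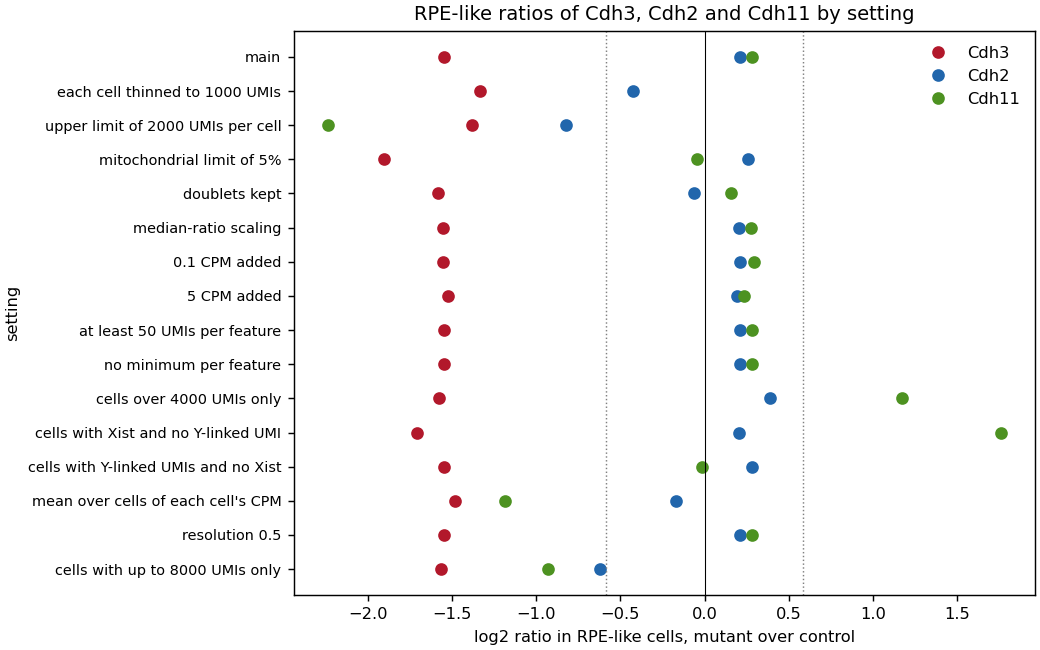
Log2 ratio of mutant over control (horizontal axis) for Cdh3 (red), Cdh2 (blue) and Cdh11 (green) in RPE-like cells under each processing setting (rows), with dotted lines at 1.5-fold. Cdh3 lies between -1.90 and -1.34 in every row, while Cdh2 and Cdh11 fall on both sides of 0.

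Joint counts of members in single RPE-like cells depended on depth. Of 380 thinned control cells, 240 held no cadherin UMI, 131 held UMIs of 1 member and 9 of more than 1. Of 185 thinned mutant cells, these numbers were 146, 37 and 2. Cdh2 and Cdh3 were found together in 5 control cells (1.32%, where the product of their separate shares is 1.80%) and 1 mutant cell (0.541%, product 0.608%). Without thinning, 17.2% of control and 29.4% of mutant cells held both, with the mutant cells deeper. These counts are too small to tell joint from separate use.

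The second comparison asked the same of the other 7 classes with at least 100 cells per library. In them 41 ratios of a member in a class could be formed, and 8 lay past 1.5-fold, 6 with a lower mutant level and 2 with a higher one. The intervals of 6 of the 8 excluded 0. Over all features the share past 1.5-fold ran from 3.48% to 12.0% in these classes. Of these 8, 4 were in endothelial-like cells. With doublets kept, 1 of 39 ratios passed 1.5-fold, that of Cdh11 in endothelial-like cells at -0.89. Of the other 7, 5 were under 1.5-fold in that setting, and Cdh3 in endothelial-like and neurogenic-like cells had no ratio there. With all kept cells, no ratio of Cdh5, Cdh6, Cdh8 or Cdh13 that reached 20 UMIs passed 1.5-fold. Of the 8 classes with RPE-like cells included, these members reached that minimum in 4, 5, 2 and 5, in the same order.

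**Figure D5:**
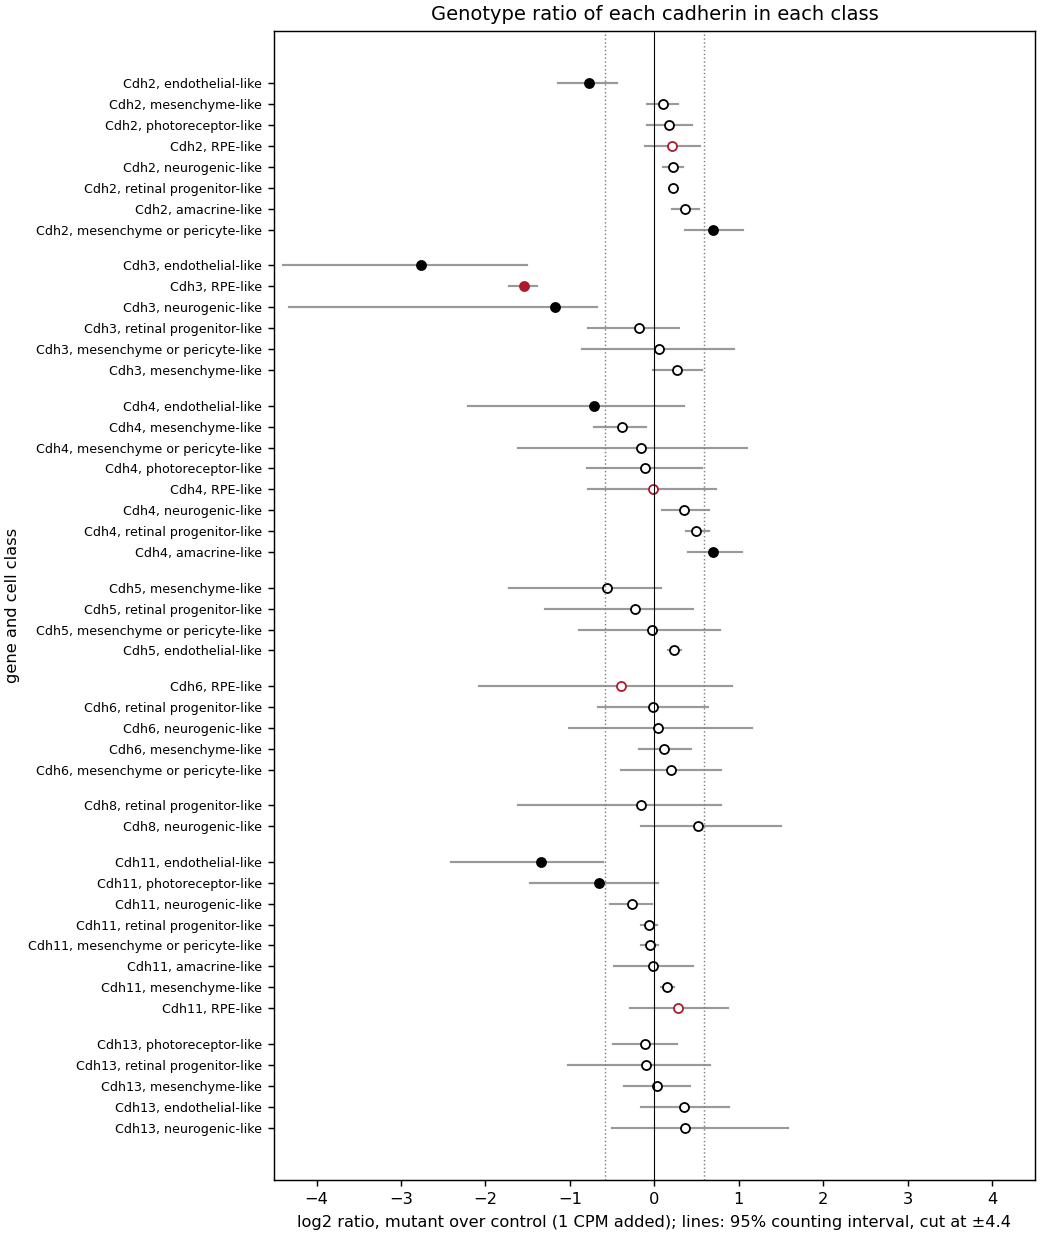
Log2 ratio of mutant over control (horizontal axis) for each cadherin in each class where it had at least 20 UMIs, with 95% counting intervals, dotted lines at 1.5-fold, filled points past it and RPE-like cells in red. Most points lie between the dotted lines, and Cdh3 in endothelial-like and RPE-like cells lies farthest to the left.

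In the neural retina, Cdh4 passed 1.5-fold in 1 of 4 classes. In amacrine-like cells it had 116 control UMIs (38.1 CPM) and 269 mutant UMIs (62.5 CPM), a log2 ratio of 0.70 (0.39 to 1.04). This was 1 of 3 members tested there, beside 8.30% of all features past 1.5-fold in either direction. In progenitor-like cells Cdh4 had 667 and 1166 UMIs and a ratio of 0.50 (0.37 to 0.65), under 1.5-fold, and in neurogenic-like cells 0.35 (0.09 to 0.64). In photoreceptor-like cells it had 36 and 42 UMIs (15.4 and 14.2 CPM) and a ratio of -0.11 (-0.80 to 0.56). The thinned share of cells with Cdh4 was 3.43% and 5.29% in amacrine-like cells and 3.11% and 4.92% in progenitor-like cells. White blood-like cells gave 1.27% and 0 of 62.

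The split by sex-linked UMIs changed these values. Among amacrine-like cells with Xist but without Y-linked UMIs, which were 16 of 530 in the control and 531 of 723 in the mutant, the Cdh4 ratio was -0.82, from 10 and 195 UMIs. Among those with Y-linked but no Xist UMIs (332 of them in the control) it was 0.71. In progenitor-like cells the ratios of Cdh4 were -0.17 in the first kind of cell (74 and 3164 cells, 21 control UMIs) and 0.58 in the second (2108 and 583). The part of sex in the Cdh4 difference was not tested. With doublets kept the ratio was 0.55 and at resolution 0.5 it was 0.54, both under 1.5-fold.

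Cdh2 in progenitor-like cells had 6876 and 9847 UMIs and a log2 ratio of 0.22 (0.18 to 0.27), a difference past counting error but under 1.5-fold. It was 0.36 (0.20 to 0.52) in amacrine-like, 0.22 (0.10 to 0.33) in neurogenic-like and 0.18 (-0.09 to 0.44) in photoreceptor-like cells. Among cells with Y-linked but no Xist UMIs the Cdh2 ratios were 0.29 in progenitor-like, 0.40 in amacrine-like, 0.29 in neurogenic-like and -0.10 in photoreceptor-like cells. Among those with Xist but without Y-linked UMIs they were 0.34, 1.05, 0.74 and -1.05 in the same order, with 123, 9, 12 and 7 control UMIs. Among the 8 members tested in progenitor-like cells 0 passed 1.5-fold, beside 3.48% of all features. Cdh13 in photoreceptor-like cells had 110 and 129 UMIs and a ratio of -0.11 (-0.49 to 0.27). Among cells with Xist but without Y-linked UMIs, of which the control had 9, this ratio was 0.59, of the other sign and past 1.5-fold. Cdh8 in neurogenic-like cells had 21 and 38 UMIs and a ratio of 0.51 (-0.15 to 1.49), and the 30 control cells with Xist but without Y-linked UMIs held 0 of them.

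Cdh3 in neurogenic-like cells had 17 control and 4 mutant UMIs (2.36 and 0.483 CPM) and a log2 ratio of -1.18 (-4.32 to -0.67). It was 1 of 7 members tested there, beside 5.46% of all features. Its control level (1.38 to 3.78 CPM) was under the 4.48 CPM (1.94 to 8.83) of control white blood-like cells, and with 5 CPM added the ratio was -0.43. The part of free RNA was not tested. Cdh11 in photoreceptor-like cells had 36 and 28 UMIs (15.4 and 9.47 CPM) and a ratio of -0.65 (-1.47 to 0.05), 1 of 4 members tested beside 8.77% of all features. The ratio was 0.15 in cells over 4000 UMIs, from 9 and 14 UMIs. The 9 control cells with Xist but without Y-linked UMIs held 0 UMIs, which gives no direction. Its control level was also under the 21.3 CPM of control white blood-like cells.

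In endothelial-like cells 4 of 6 members tested were lower in the mutant by at least 1.5-fold, beside 8.46% of all features lower and 12.0% in either direction. Cdh2 had 277 UMIs (80.4 CPM) and 92 UMIs (46.5 CPM), a ratio of -0.78 (-1.15 to -0.44). It was 0.60 in cells with Xist but without Y-linked UMIs (66 and 93 cells) and -1.62 in those with Y-linked but no Xist UMIs (195 and 34). Cdh11 had 67 and 14 UMIs (19.5 and 7.08 CPM), a ratio of -1.34 (-2.40 to -0.61). Cdh4 had 25 and 8 UMIs and a ratio of -0.71 (-2.20 to 0.35). Cdh3 had 20 UMIs for control and 0 for mutant cells, and against the level of 3 counts it was at least 3.83-fold lower in the mutant. With the counting error of the control UMIs included, the interval of the log2 ratio ended at -1.50. Median depths in this class were 3894 and 8997.5 UMIs.

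White blood-like cells, which should lack these 4 genes, also had lower levels in the mutant, from 51.6 to 25.3 CPM for Cdh2, from 21.3 to 4.75 CPM for Cdh11, from 5.04 to 3.16 CPM for Cdh4 and from 4.48 to 0 CPM for Cdh3. The thinned share of endothelial-like cells with Cdh2 was 8.93% and 4.24%, with intervals that overlapped those of the white blood-like shares of 8.47% and 3.23%. The control Cdh2 level of endothelial-like cells (71.2 to 90.5 CPM) lay above that of white blood-like cells (41.6 to 63.2 CPM), while the control intervals of Cdh3, Cdh4 and Cdh11 overlapped. The part of free RNA in these differences was not tested. Cdh5, the class's own cadherin, was at 1034 and 1216 CPM, a ratio of 0.23 (0.16 to 0.31) and so not among the lower members.

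In mesenchymal cells Cdh11 differed by less than 1.5-fold. Its ratio was 0.15 (0.08 to 0.23) in mesenchyme-like cells, from 3305 and 2479 UMIs, and -0.06 (-0.16 to 0.04) in the mesenchyme or pericyte-like class, from 2478 and 1286. Cdh3 in mesenchyme-like cells had 222 and 181 UMIs and a ratio of 0.26 (-0.02 to 0.56). It was 0.66 among cells with Y-linked but no Xist UMIs, past 1.5-fold, and -0.03 among those with Xist but without Y-linked UMIs. Cdh4 there had a ratio of -0.39 (-0.72 to -0.10), which was -1.23 in the cells with Xist and -0.07 in those with Y-linked UMIs. The interval of Cdh3 in mesenchyme-like cells, -0.02 to 0.56, shares no value with that of Cdh3 in RPE-like cells, -1.72 to -1.39. With 1 library per genotype the difference between the classes was not tested. None of the 7 members tested in mesenchyme-like cells passed 1.5-fold, beside 3.70% of all features.

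Cdh2 in the mesenchyme or pericyte-like class had 152 UMIs (39.0 CPM) and 134 UMIs (63.7 CPM), a ratio of 0.69 (0.36 to 1.05). It was 0.16 after thinning and 0.05 in cells of up to 8000 UMIs (62 and 45 cells). This was 1 of 6 members tested there, beside 11.3% of all features in either direction. The thinned shares were 4.17% and 4.66%, with intervals that overlapped each other and those of white blood-like cells. The mutant level (53.4 to 75.5 CPM) lay above that of mutant white blood-like cells.

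Over all kept cells of the eye cup the cadherin levels combined these differences with the makeup of the cells. Cdh3 went from 28.3 to 10.8 CPM, a log2 ratio of -1.31, and was the only 1 of 9 members past 1.5-fold, beside 4.28% of 17121 features. With control levels in each cluster and the mutant's share of UMIs per cluster, the ratio of Cdh3 would be -0.27. Such shares depend on depth as well as cell number, and RPE-like median depths were 2542 and 10410 UMIs. For Cdh5 the eye cup ratio was -0.48 and that from these UMI shares alone -0.66, and for Cdh11 they were -0.31 and -0.29. For Cdh2 they were 0.44 and 0.23, and for Cdh4 0.48 and 0.13.

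Partners of the cadherins were read from lists. Of 9 catenins and linkers, 7 reached 20 UMIs in RPE-like cells and 0 differed by 1.5-fold, with a median log2 ratio of -0.15 against 0.00 over all features. Ctnnb1 (β-catenin) had 427 and 385 CPM, a ratio of -0.15 (-0.27 to -0.03). Ctnna1 (α-catenin) had 201 and 152 CPM, a ratio of -0.40 (-0.59 to -0.22), and Ctnnd1 (p120-catenin) a ratio of -0.33 (-0.71 to 0.03). Vcl (vinculin, which strengthens the link to actin) had 58.7 and 79.6 CPM, a ratio of 0.43 (0.14 to 0.74).

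Of 4 nectins, the calcium-independent adhesion proteins of the same junctions, 3 were tested and 0 passed 1.5-fold. Nectin3 came nearest, at 187 and 125 CPM and a ratio of -0.57 (-0.78 to -0.38). Of 4 desmosome genes 3 were tested: Dsp (desmoplakin) had 27 and 3 UMIs, a ratio of -2.08 (-5.15 to -1.09), while Dsg2 and Pkp2 were higher by over 1.5-fold with intervals that held 0.

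Of 10 further cadherin genes 1 reached the minimum in RPE-like cells. Cdh20 (a type II cadherin) had 11 and 24 UMIs, 3.42 and 9.70 CPM, a ratio of 1.28 (0.42 to 2.68). Of 5 transcription factors known to repress cadherin genes, Zeb1 and Zeb2 had ratios of -0.48 (-1.16 to 0.13) and -0.09 (-0.43 to 0.24). Twist1 had 21 and 1 UMIs, a ratio of -2.42 (-9.38 to -1.38), in the same direction as the mesenchyme marker sum given above. Its level was 210 and 245 CPM in mesenchyme-like cells. In the mesenchyme or pericyte-like class it was 171 and 113 CPM, a ratio of -0.59 (-0.81 to -0.38). Twist1 was also lower in the mutant in amacrine-like (-1.47), endothelial-like (-1.82), neurogenic-like (-1.74), photoreceptor-like (-2.004) and progenitor-like cells (-0.96), with intervals that excluded 0. The part of mesenchymal RNA in its difference was not tested. Snai1 and Snai2 stayed under 20 UMIs.

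Patterns over the 14 classes in both libraries (28 points) were compared across 13598 genes by Pearson's r of log2(CPM + 1), as a description, since the points share libraries and depth. The genes most like Cdh3 were Cldn1 (a tight junction claudin, r = 0.91), Col8a1 (0.89) and Clu (0.88). Those most like Cdh5 were the endothelial genes Ptprb (0.95), Icam2 (0.94) and Aplnr (0.93). Cdh1 lay nearest to Serpinb5, Gpha2 and Gast (0.98 each), Cdh2 to Nsd2, Blm and Adam22 (0.87 to 0.89), and Cdh4 to Scrn1, Rmst and Apba2 (0.88 to 0.90).

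Of the remaining members, Cdh6 was most like Agt (0.94), Cdh8 like Slit1 (0.90), Cdh11 like Ptn (0.88) and Cdh13 like Mcc (0.77). Between members the highest values were 0.77 for Cdh6 with Cdh11 and 0.70 for Cdh2 with Cdh4, and the lowest was -0.42 for Cdh1 with Cdh2. Cdh3 had no member above 0.37, its value with Cdh1.

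Cdh3 and Cdh1 are close neighbours in the genome. In the GENCODE M21 annotation of GRCm38, Cdh3 lies on the plus strand of chromosome 8 from 106510891 to 106557297 and Cdh1 on the same strand from 106603351 to 106670246, a gap of 46.1 kb with 2 annotated genes in it. In all, 6 of the 9 members lie on chromosome 8 between 99.0 and 119 Mb. RPE-like cells held 1487 control UMIs of Cdh3 and 2 of Cdh1. In surface epithelium-like cells both were counted, and their clusters differed in order: cluster 30, led by Krt14 and Col17a1, had 67.9 CPM of Cdh1 and 66.3 CPM of Cdh3 in the control, and cluster 33, led by Krt6a and Krt13, had 139 and 12.1 CPM. The mutant had 79.5 and 44.5 CPM in cluster 30 and 146 and 12.9 CPM in cluster 33.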

How the data were processed

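The authors made the 10x Genomics 3′ libraries and counted them with Cell Ranger (7.1.0 in the submitters' processing notes, 3.1.0 in the matrix headers) on GRCm38. The annotation is not given in the sources used here. The deposited values are raw UMI counts per gene and barcode, not normalized, with 14305 control and 12222 mutant barcodes. Barcodes with under 200 genes or over 15% mitochondrial UMIs were dropped. The stated doublet limit of 2000 UMIs was an alternative only, since 80.2% and 92.1% of barcodes exceed it. Scrublet (scanpy 1.11.5) marked doublets at an expected 0.8% per 1000 cells (1503 and 1156 barcodes), because its own threshold marked 0% and 5.06%. Cells were integrated and clustered in Seurat 5.3.0 (R 4.3.3) with 2000 variable genes, less 69 listed genes, 30 components and resolution 1.

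Class names were rebuilt, since no annotation of cells was used here, and may differ from the study's. A cluster was named from markers found in at least 10% of its cells at 2 times the level elsewhere, with at least 3 needed. The rules that left shallow, mixed or doublet-like clusters unnamed were chosen after the clusters had been seen. Class UMIs were added up, the level being CPM of the class total, with exact Poisson, conditional Poisson or Clopper-Pearson 95% intervals, which cover counting error only. Features needed 20 UMIs over both libraries, and past 1.5-fold means a log2 ratio beyond 0.58 with 1 CPM added. Thinning drew 1000 UMIs per cell. The code was tested on simulated counts. All members were described, and genes most like each were the 3 with the highest Pearson's r among those with 200 UMIs. Members, partner lists and rules were chosen with earlier results of these data known. Other-class alternatives and the 8000 UMI limit were added after seeing the data.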

Additional observations from a re-analysis of the deposited data

Results flagged for a closer look

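Cdh2 had opposite signs in 2 supporting-tissue classes. Its log2 ratio of mutant over control was -0.78 in endothelial-like cells and 0.69 in mesenchyme or pericyte-like cells, both past 1.5-fold. With 1 library per genotype the difference between the classes was not tested. The level of white blood-like cells, which gauges free RNA, was 51.6 CPM for control and 25.3 CPM for mutant cells. In cells with Xist but without Y-linked UMIs the endothelial-like ratio was 0.60 (66 and 93 cells), and in cells of up to 8000 UMIs the mesenchyme or pericyte-like ratio was 0.05. With doublets kept both were under 1.5-fold, at -0.57 and 0.50.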

How the results depend on the processing

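Across 15 alternatives Cdh3 stayed lower by at least 1.5-fold in RPE-like cells, from -1.90 (mitochondrial limit of 5%) to -1.34 (cells thinned to 1000 UMIs). The number of members past 1.5-fold there, 1 in the report, became 2 with doublets kept, in cells over 4000 UMIs and in cells with Xist but without Y-linked UMIs, 3 with an upper limit of 2000 UMIs, with no minimum per feature and in cells of up to 8000 UMIs, and 4 by the mean over cells. Cdh3 was among them each time. In the other classes the number, 8 in the report, became 4 after thinning (22 ratios left), 3 under 2000 UMIs (6 left), 1 with doublets kept (39 left), 5 with 5 CPM added, with at least 50 UMIs per feature, in cells over 4000 UMIs and at resolution 0.5, and 20 in cells with Xist but without Y-linked UMIs. In those last cells Cdh4 in amacrine-like cells reversed to -0.82 and Cdh2 in endothelial-like cells to 0.60. Cdh11 in photoreceptor-like cells came to 3.46 there, against 0 UMIs in 9 control cells, which gives no direction. Cdh11 in photoreceptor-like cells reversed to 0.15 in cells over 4000 UMIs. The causes were not tested. Of the single ratios under alternatives, 505 stayed within their counting interval, 66 moved outside it, and the 4 given above, past 1.5-fold in the report, had the other sign. Ratios under 1.5-fold also changed sign: that of Cdh2 in RPE-like cells kept its sign in 10 of 15 alternatives and that of Cdh11 in 9 of 14. No paired analysis was possible because there was 1 library per genotype, and no library could be left out.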

Other observations

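Melanocyte-like and Schwann-like cells fell under 20 cells in the mutant library and were given no ratio. Melanocyte-like cells (30 control, 18 mutant) had 51.5 and 45.5 CPM of Cdh1 and 69.3 and 75.8 CPM of Cdh13, from 29 and 15 and from 39 and 25 UMIs, with Cdh3 at 2 and 3 UMIs. They are the other pigmented cells of the eye and differed from the RPE-like pattern in Cdh3, Cdh1 and Cdh13. In RPE-like cells Cdh1 and Cdh13 had at most 4 UMIs each. Cdh2, the second cadherin of RPE-like cells, was also counted in melanocyte-like cells, with 18 and 22 UMIs. Cells with Schwann or other glia markers (21 and 19) had 335 and 420 CPM of Cdh2 and 194 and 280 CPM of Cdh6, from 22 and 34 UMIs. Astrocyte-like cells, with 31 cells in each library, had 18 control and 90 mutant UMIs of Cdh2, or 43.2 CPM (25.6 to 68.4) and 164 CPM (132 to 202), while their Cdh13 stood at 48.1 and 52.9 CPM. Markers of other cells moved in this class too: the summed level of 8 red blood markers was 76.9 and 19736 CPM, of 9 pericyte markers 91.3 and 215 CPM, of 8 neurogenic markers 187 and 421 CPM and of 9 mesenchyme markers 1338 and 749 CPM. Their part in the Cdh2 difference was not tested.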
